A study of Drosophila melanogaster with 8 samples.

Results

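The Tc1/mariner superfamily is represented here by 6 families of DNA transposon, mariner2, Bari1, Bari2, S, Tc3 and pogo. They were taken by name from the 111 transposable element (TE) families whose RNA was quantified in Drosophila melanogaster ovaries, and each of the 6 names had a row in both of the tables used. The tables hold 21 DNA families in all, so that 15 other DNA families serve as a reference, among them Tc1, Tc1-2 and S2, which belong to the same superfamily but were not among the chosen names.

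PolyA RNA from 30 pairs of ovaries per sample was sequenced for 4 groups of 2 biological replicates each. No-KD and piwi-sKD ovaries came from a single line in the w background, with the driver tj-GAL4 on one chromosome and tubP-GAL80[ts] together with sh-piwi on another. No-KD flies were kept at 20°C, where the thermosensitive GAL80 blocks GAL4, and piwi-sKD flies were at 25°C for the last 5 days, which lets tj-GAL4 drive the hairpin against piwi in the somatic follicle cells around the germline. The double knockdowns were both labelled 25°C, but their library names carry 28 in the place where those of the first pair of groups carry 20 or 25, so their temperature is in doubt. They had tj-GAL4 over a wild-type chromosome (tj-GAL4/+) and the GAL80[ts] sh-piwi chromosome over a further hairpin, which was sh-w (against white) in piwi-sKD,ctrl-sKD and sh-dcr2 (against Dcr2) in piwi-sKD,dcr2-sKD. The 4 groups thus all carry the driver, the GAL80[ts] transgene and the piwi hairpin. In these samples temperature and depletion of Piwi cannot be told apart between no-KD and piwi-sKD. The study ran a separate temperature control by RT-qPCR, in flies with an added GAL80 that is not thermosensitive. None of the subset of TEs measured there rose, and the main text does not list them. The double knockdowns differ from the first pair of groups in genotype, in the hairpins and possibly in temperature. All samples were whole ovaries, so fewer cells of a type and less RNA per cell cannot be told apart either.

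Tc1/mariner elements move by a cut-and-paste mechanism. A complete copy encodes a transposase of the DDE/DDD type, which binds the terminal inverted repeats, excises the element and inserts it at a TA dinucleotide that is duplicated in the process. Many copies in a genome have lost part of the transposase gene and can move only if an enzyme is supplied from elsewhere. In follicle cells Piwi, loaded with piRNAs, silences TEs in the nucleus by directing repressive chromatin to them, and Dcr2 makes the siRNAs of a separate, cytoplasmic pathway.

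The 6 families differ in how many copies the reference genome holds and in how many of these come near the length of a yardstick copy, defined below. Positions and lengths below are from the Ensembl annotation of assembly BDGP6.54, not from the list of copies that the study counted against, whose build is not given in the sources used here. Insertions particular to these fly stocks were not analysed.

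S was annotated at 78 insertions, the most of the 6, and pogo at 50, mariner2 at 23, Tc3 at 19, Bari1 at 10 and Bari2 at 5. Bari1 was nearly uniform in length: 9 of its 10 insertions were within 10% of the longest copy, a 1740-bp element on 3R (19137125 to 19138864, plus strand) that overlaps the 3′ UTR of Cyp12a4. For S the longest uninterrupted copy on 2L, 3L, 3R, 4 or X was 1762 bp, in an intron of rdx on 3R (14021702 to 14023463, minus strand), and 32 of 78 insertions were within 10% of that length. By contrast only 5 of 50 pogo insertions, 2 of 23 of mariner2, 1 of 19 of Tc3 and 1 of 5 of Bari2 were near the length of their longest copy. The yardstick is the longest uninterrupted copy annotated on 2L, 3L, 3R, 4 or X and not a consensus sequence, so it need not show how complete a copy is. Copies elsewhere were not used for it. For S this left out a longer insertion of 6590 bp on 2R (4889097 to 4895686, minus strand), which overlaps no other annotated TE. For mariner2, insertions of 983, 895, 895, 879, 878 and 844 bp fell outside the 10%. For pogo 30 of the 50 insertions were under 500 bp long, around a median of 186 bp, and the longest copy had 2123 bp and lay outside genes on 2L (17912012 to 17914134, minus strand). The longest mariner2 copy had 1110 bp and was also outside genes, on 3L (23132381 to 23133490, plus strand). The longest Tc3 copy, with 1743 bp, was in an intron of Cdep on 3R (4942976 to 4944718, plus strand), whereas most Tc3 insertions (13 of 19) were under 500 bp. The longest Bari2 copy had 1197 bp in an intron of unc-13 on chromosome 4 (894624 to 895820, minus strand).

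Insertions inside genes were common. They made up 33 of 50 for pogo, 12 of 23 for mariner2, 38 of 78 for S, 9 of 19 for Tc3, 4 of 10 for Bari1 and 4 of 5 for Bari2, most of them in introns. The normalised counts do not separate transcripts of such host genes from transcripts of the elements.

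**Figure D1:**
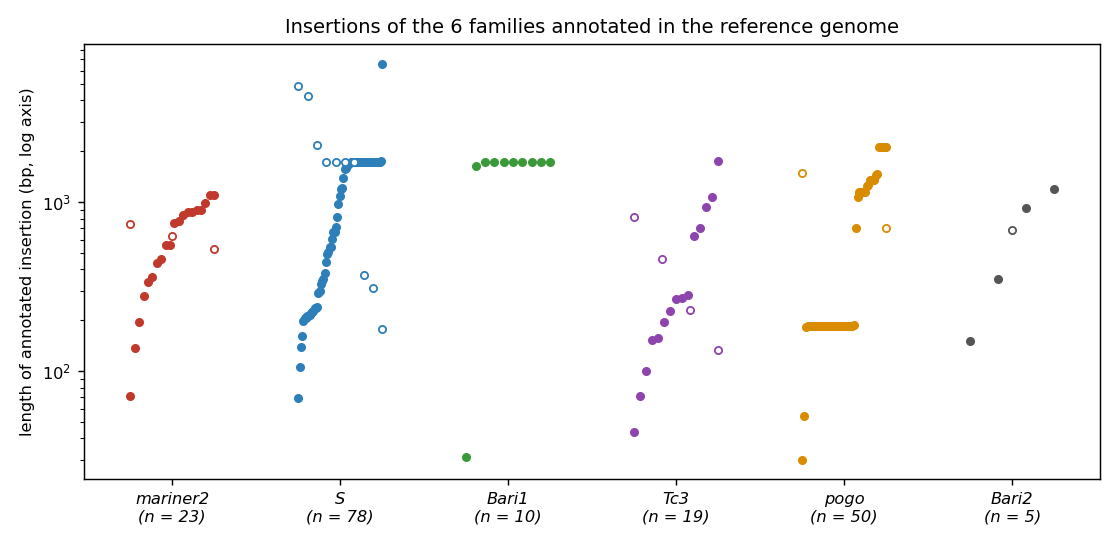
Length of every annotated insertion of the 6 families in assembly BDGP6.54, in bp on a log axis, with 1 point per insertion and the number of insertions under each name (open points, insertions that overlap another annotated TE). Bari1 forms a single cluster near 1740 bp apart from 1 fragment, while pogo has a dense cluster near 186 bp and 5 copies near 2123 bp.

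The values are read counts per family after normalisation by size factors that the authors estimated from genes and TEs together, separately for each table. No-KD and piwi-sKD share 1 table and the double knockdowns the other. Every value was a whole multiple of what 1 read is worth in its sample to within 1e-06 of a read, which gave size factors of 0.927 to 1.13 and between 78807 and 343458 TE reads per sample. A level of 3 reads, used here as the detection floor, equals 2.66 to 3.23 normalised counts. All families together had 2.59 times more normalised counts in piwi-sKD than in no-KD, and 1.65 times more in piwi-sKD,dcr2-sKD than in piwi-sKD,ctrl-sKD.

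Bari2 was the only one of the 6 near this floor. It had 1 and 2 reads in the no-KD samples, 3 and 5 reads in piwi-sKD, 4 and 8 reads with the ctrl-sKD hairpin and 8 and 7 reads with the dcr2-sKD hairpin. An exact Poisson 95% interval runs from 0.025 to 5.57 for 1 read and from 3.45 to 15.8 for 8 reads. All of these intervals thus overlap, and they cover counting error only. No fold change of Bari2 is given as a measure of its response, because both no-KD samples are under the floor. Each of the other families had at least 31 reads in every sample, the low end being Bari1.

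**Figure D2:**
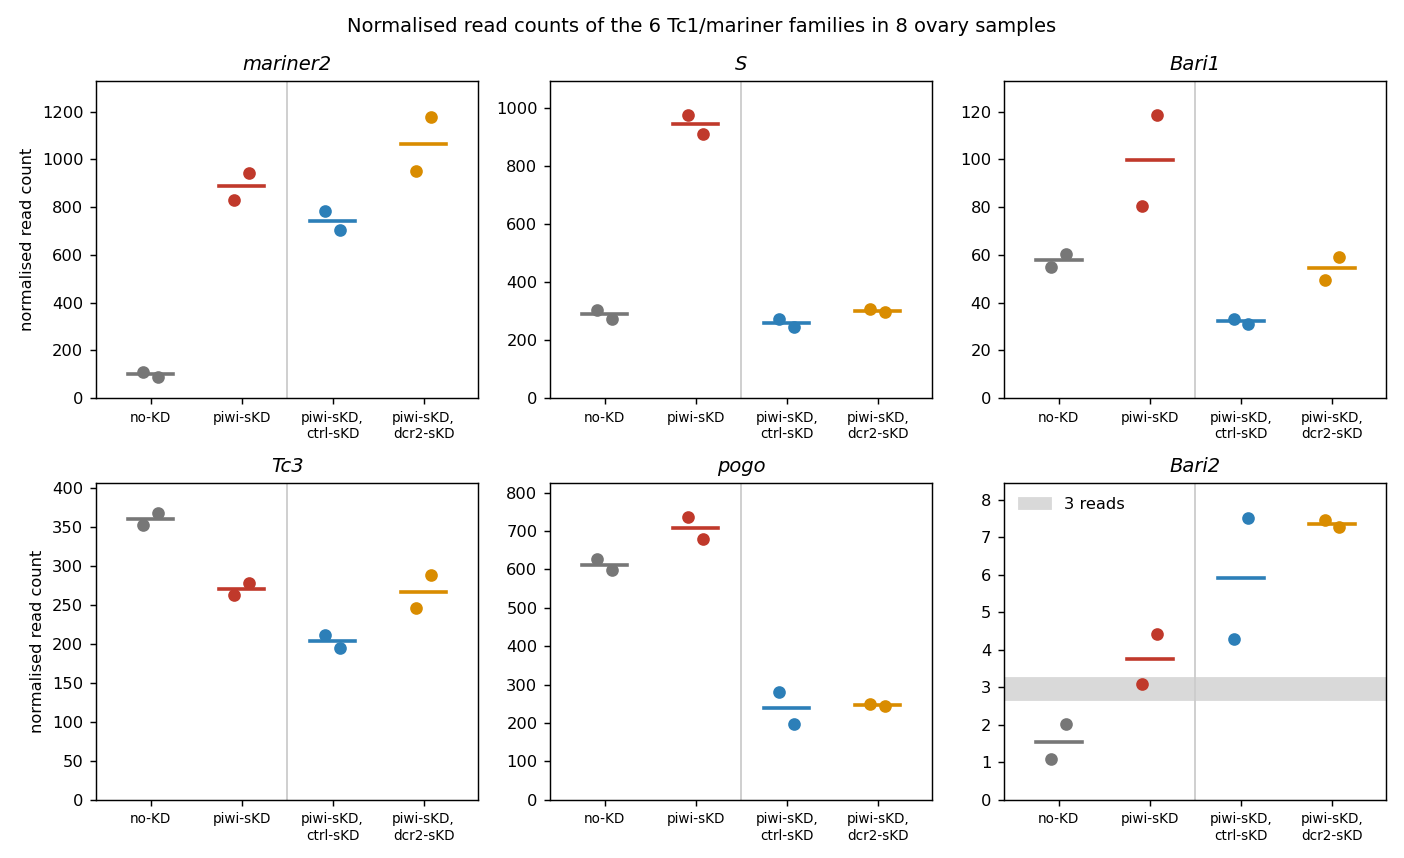
Normalised read count of each family (y axis from 0, a separate scale for each panel) in the 4 groups; points are samples, horizontal bars the means of 2 replicates, and the grey line separates the 2 tables, each with its own size factors. Values of mariner2 are low only in no-KD (89.8 and 111), values of S are high only in piwi-sKD (911 and 975), and those of Bari2 lie near the grey band that marks 3 reads.

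The first comparison asked how RNA of the families differs when Piwi is depleted in follicle cells. Of the 6 families, mariner2, S and Bari1 were higher in piwi-sKD than in no-KD, Tc3 was lower, and pogo and Bari2 did not pass the test. The test was limma on log2(normalised count + 1), with p-values adjusted by Benjamini-Hochberg over all 109 families tested, and log2 fold changes below are on that scale. It called 55.0% of all families higher and 5.50% lower, so 3 of 6 members higher is near the background of the table. The median log2 fold change was 0.83 over the 6 members, 0.47 over all families and 0.18 over the 15 other DNA families. The value for the 6 lies between Bari1 (0.75) and Bari2 (0.91), so it depends on the family near the floor.

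The change in mariner2 was the largest of the 6. The no-KD samples had 111 and 89.8 normalised counts and the piwi-sKD samples 830 and 943, from 103 and 89 reads against 803 and 1066. The groups were far apart, and the difference exceeded the spread between replicates many times over. The means were 100.4 ± 15.02 and 887 ± 80.5 (SD, n = 2 each), an 8.83-fold difference, with a log2 fold change of 3.13 ± 0.15 (SE) and an adjusted p of 2.39e-07 by limma. It was rank 10 of the 109 families by log2 fold change. The value relative to the median of all families was 2.67.

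S, often annotated near the length of its yardstick copy, had 304 and 273 normalised counts in no-KD and 975 and 911 in piwi-sKD. Here too the lowest piwi-sKD sample was well above the highest no-KD sample. The means of 288 ± 22.3 and 943 ± 45.7 (SD, n = 2 each) gave a 3.27-fold difference, a log2 fold change of 1.71 ± 0.11 (SE) and an adjusted p of 2.21e-06 by limma, at rank 21 of 109. Both mariner2 and S kept their direction and their call in all 15 other settings tried. The sizes, however, depended on the scale: with the summed TE signal of all samples made equal, the log2 fold changes were 1.77 for mariner2 and 0.34 for S, which is relative to a rise of the whole TE signal.

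Bari1 was annotated at 10 insertions in the reference genome, 9 of them near the length of its longest copy. It had 55.0 and 60.5 normalised counts in no-KD and 80.6 and 119 in piwi-sKD. The 2 piwi-sKD replicates differed from each other by 1.47 times, more than in any other group of Bari1, although neither overlapped with no-KD. The means were 57.8 ± 3.93 and 99.6 ± 26.9 (SD, n = 2 each), a 1.72-fold difference, with a log2 fold change of 0.75 ± 0.23 (SE) and an adjusted p of 0.0185 by limma. This call did not hold when no-KD replicate 1 (log2 0.68, adjusted p = 0.0876), no-KD replicate 2 (0.82, adjusted p = 0.0629) or piwi-sKD replicate 2 (0.47, adjusted p = 0.359) was left out of the limma fit. With equal TE sums the direction turned (log2 −0.60, adjusted p = 0.00588 by limma).

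Tc3 moved the other way. This family, named after a nematode transposon and present mostly as short fragments, had 353 and 368 normalised counts in no-KD and 262 and 278 in piwi-sKD, without overlap. The means were 360 ± 11.1 and 270 ± 10.9 (SD, n = 2 each), so the level in piwi-sKD was 0.749 of that in no-KD. The log2 fold change was −0.41 ± 0.12 (SE) with an adjusted p of 0.0163 by limma, and rank 103 of 109 placed it among the lowest families. The direction was the same in every setting tried. The call was lost without no-KD replicate 2 (log2 −0.38, adjusted p = 0.0561), piwi-sKD replicate 1 (−0.37, adjusted p = 0.144) or piwi-sKD replicate 2 (−0.46, adjusted p = 0.0920) in the limma fit, and with a replicate block (−0.41, adjusted p = 0.0514).

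The family with the highest counts of the 6 in no-KD, pogo, whose transposase is related to human CENP-B, differed less. It had 626 and 598 normalised counts in no-KD and 738 and 679 in piwi-sKD. The samples did not overlap, but the gap was small. The log2 fold change of 0.21 ± 0.10 (SE) had a 95% interval from −0.03 to 0.45 and an adjusted p of 0.118 by limma. With a crossed replicate block, added after seeing the data, the same value had an adjusted p of 0.0158 by limma. For Bari2, with the read numbers given above, the log2 fold change was 0.91 ± 0.45 (SE), with a 95% interval from −0.12 to 1.94 and an adjusted p of 0.110 by limma, on a scale where the added 1 weighs heavily at these counts, and it rests on 1 to 5 reads per sample. Bari2 was called higher by limma at the same log2 value without the error trend (adjusted p = 0.0274) and with a replicate block (adjusted p = 0.0450), and at 0.71 without piwi-sKD replicate 2 (adjusted p = 1.16e-05), a fit in which the remaining piwi-sKD sample has 3 reads.

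A ratio of group means over 2 was reached by 28.7% of the families and by mariner2, S and Bari2, the last from counts at the floor, while a ratio under 1/2 was reached by 1.85% and by none of the 6. In 5 of the 6 both piwi-sKD samples were above both no-KD samples, against 73.4% of all families, and in Tc3 both were below, against 11.0%. Bari2 is among the 5, with 3 and 5 reads against 1 and 2. Of the 15 other DNA families, 7 were higher (Hobo, hopper, NOF, Tc1, Tc1-2, transib1 and transib2) and 0 lower by limma, with 0 lower also at an unadjusted p under 0.05 and with precision weights from voom. Outside the superfamily, transib1 (3.95-fold, rank 17) had a larger ratio than S, and NOF reached 2.66-fold (rank 24). The relatives Tc1 (1.40-fold, adjusted p = 0.0139) and Tc1-2 (1.41-fold, adjusted p = 0.00694) had smaller ratios than mariner2 and S, and S2, in spite of its name, did not pass the test (1.07-fold, adjusted p = 0.683).

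The calls depended strongly on what was held equal. With equal TE sums 22 families were higher and 78 lower, instead of 60 and 6, and all log2 fold changes moved by a median of −1.36. With samples centred on the median family the counts were 22 and 73, and the shift was −1.22. In both of these settings 3 of the 6 families were lower. With the summed counts of the 15 other DNA families held equal, a setting chosen after seeing the data, the shift was only −0.15.

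**Figure D3:**
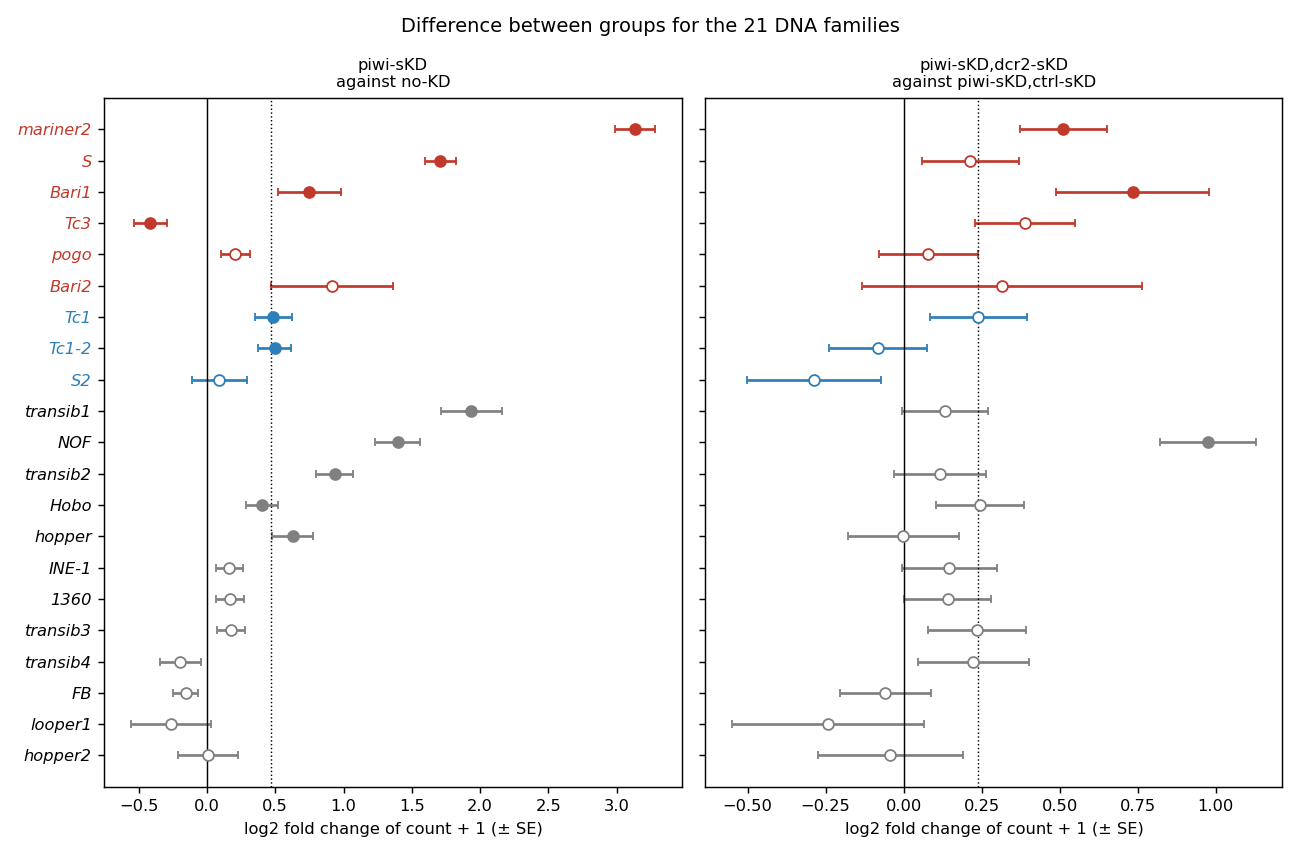
Log2 fold change of normalised count + 1 with its standard error for the 21 DNA families in each comparison (red, the 6 families described here; blue, the 3 other Tc1/mariner families; grey, other DNA families; filled points, adjusted p under 0.05 by limma; dotted line, median of all families tested). In the left panel mariner2 (3.13) lies furthest right, followed by transib1 (1.94, grey) and S (1.71), and Tc3 (−0.41) is the only filled point left of 0. In the right panel only mariner2 (0.51), Bari1 (0.73) and NOF are filled.

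The second comparison asked whether depletion of Dcr2 on top of Piwi changes the same RNAs. Differences were smaller than in the first comparison. Of the 6 families, mariner2 and Bari1 were higher in piwi-sKD,dcr2-sKD than in piwi-sKD,ctrl-sKD by limma, 0 were lower (0 also at an unadjusted p under 0.05 and with voom weights), and S, Tc3, pogo and Bari2 did not pass the test. Among all 110 families tested 27.3% were called higher and 3.64% lower, so 2 of 6 is again near the background. The median log2 fold change was 0.35 over the 6 families, 0.24 over all families and 0.13 over the 15 other DNA families. The value for the 6 lies between Bari2 (0.32) and Tc3 (0.39), so Bari2 bears on it here too. The limma fit of this table took its error wholly from the trend over families, so that a wide gap between 2 replicates did not weaken a p.

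For mariner2 the controls had 782 and 703 normalised counts, against 953 and 1175 in piwi-sKD,dcr2-sKD. Both Dcr2 knockdown samples were above both controls. The means of 742 ± 56.1 and 1064 ± 158 (SD, n = 2 each) gave a 1.43-fold difference, a log2 fold change of 0.51 ± 0.14 (SE) and an adjusted p of 0.00119 by limma. Without piwi-sKD,dcr2-sKD replicate 2 the log2 fold change was 0.36 with an adjusted p of 0.260, and it was −0.21 (adjusted p = 0.140) with equal TE sums, 0.14 (adjusted p = 0.365) with median centring and 0.40 (adjusted p = 0.0723) with the other DNA families held equal, all by limma.

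Bari1 had 33.3 and 31.0 normalised counts in the controls, against 49.3 and 59.2 in piwi-sKD,dcr2-sKD, from 31 and 33 reads against 53 and 57. The groups did not overlap. The means of 32.1 ± 1.65 and 54.3 ± 6.99 (SD, n = 2 each) gave a 1.69-fold difference, with a log2 fold change of 0.73 ± 0.24 (SE) and an adjusted p of 0.0111 by limma. The call was lost without piwi-sKD,ctrl-sKD replicate 1 (log2 0.78, adjusted p = 0.0784), without piwi-sKD,ctrl-sKD replicate 2 (0.68, adjusted p = 0.0812), without piwi-sKD,dcr2-sKD replicate 2 (0.60, adjusted p = 0.209) and in the 3 other scalings (adjusted p from 0.0713 to 0.915), all by limma.

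Tc3 was just short of the threshold, with 212 and 195 normalised counts in the controls, against 246 and 289 in piwi-sKD,dcr2-sKD. Its log2 fold change of 0.39 ± 0.16 (SE), with a 95% interval from 0.07 to 0.71, had an adjusted p of 0.0508 by limma. In 4 other settings the adjusted p was under 0.05, the lowest of them 0.0365 in the fit with voom weights. With equal TE sums the sign turned (log2 −0.33).

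S had 274 and 246 normalised counts in the controls, against 306 and 296 in piwi-sKD,dcr2-sKD, a log2 fold change of 0.21 ± 0.16 (SE; 95% interval −0.09 to 0.52; adjusted p = 0.313 by limma). For pogo the samples overlapped. It had 280 and 196 normalised counts in the controls, a replicate ratio of 1.43, and 251 and 245 in piwi-sKD,dcr2-sKD, with a log2 fold change of 0.08 ± 0.16 (SE; 95% interval −0.24 to 0.39; adjusted p = 0.733 by limma). Bari2 also overlapped, at 0.32 ± 0.45 (SE; 95% interval −0.57 to 1.20; adjusted p = 0.637 by limma).

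None of the 6 reached a ratio of means over 2, which 11.9% of families did, or under 1/2, which 2.75% did. Both piwi-sKD,dcr2-sKD samples were above both controls in mariner2, Bari1, S and Tc3, against 54.5% of all families, and in 0 of the 6 were both below, against 11.8%. NOF was the only one of the 15 other DNA families called higher by limma, and 0 were lower at any of the same thresholds. The log2 fold changes of Tc1 (0.24, adjusted p = 0.249), Tc1-2 (−0.08, adjusted p = 0.730) and S2 (−0.29, adjusted p = 0.329) did not pass limma's test. Here too the split of the calls followed the scale. With equal TE sums 12 families were higher and 65 lower instead of 30 and 4, and the shift was −0.72. With median centring 16 were higher and 19 lower, and the shift was −0.37, and in both settings 0 of the 6 families were called higher.

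**Figure D4:**
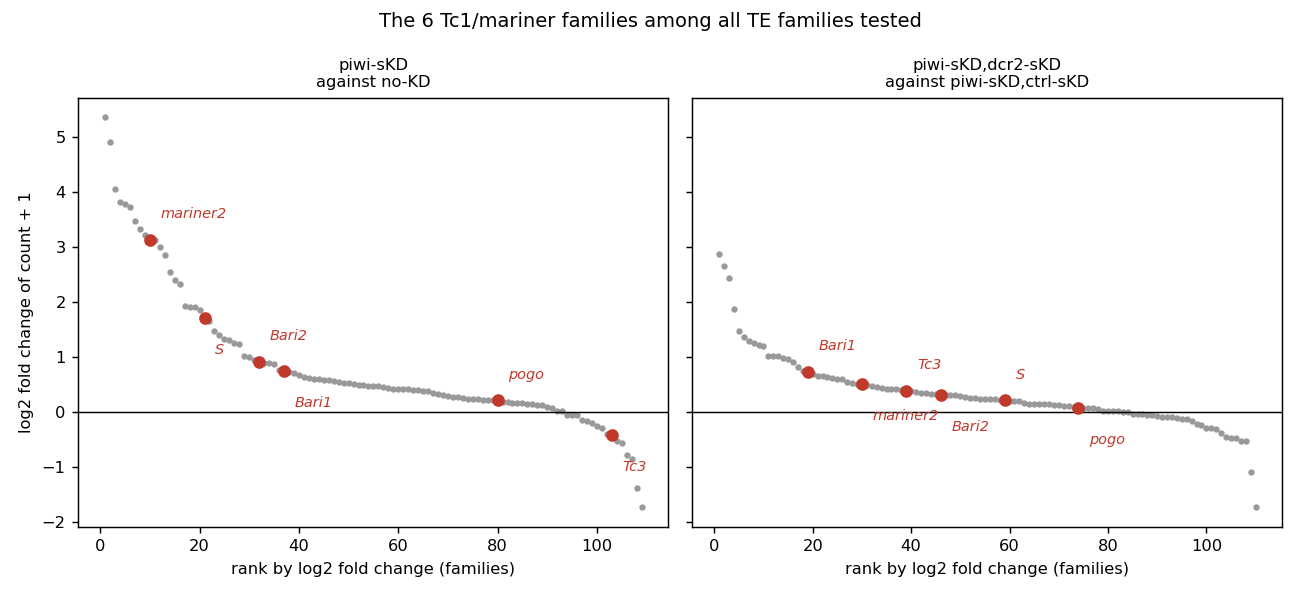
Log2 fold change of normalised count + 1 of every family tested against its rank, for each comparison, with the 6 families in red and named. In the left panel they spread over the whole order from mariner2 at rank 10 to Tc3 at rank 103 of 109, and in the right panel from Bari1 at rank 19 of 110 downwards.

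The 4 groups were then set side by side. The tables were normalised separately, so levels across them are a description with no test. They are also given per 1000 reads of the 15 other DNA families, a ratio within each sample that does not use the size factors. This reference is not constant between groups. In normalised counts INE-1, its largest member, was in piwi-sKD,ctrl-sKD at 0.677 of its piwi-sKD level, and transib1 at 4.92 times its own. Per 1000 reads of the other DNA families mariner2 was at 7.59 ± 0.892 in no-KD, 60.4 ± 4.41 in piwi-sKD, 59.5 ± 1.25 (piwi-sKD,ctrl-sKD) and 79.0 ± 13.8 (piwi-sKD,dcr2-sKD; SD, n = 2 each). On this scale it was thus at a like level in piwi-sKD and piwi-sKD,ctrl-sKD and low in no-KD alone. In normalised counts the ratio of piwi-sKD to piwi-sKD,ctrl-sKD was 1.19, without overlap of the samples.

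S had another profile. It was at 21.8 ± 0.987 per 1000 reads of the other DNA families in no-KD, 64.3 ± 4.26 in piwi-sKD, 20.8 ± 0.419 (piwi-sKD,ctrl-sKD) and 22.3 ± 0.061 (piwi-sKD,dcr2-sKD). The level in piwi-sKD stood alone, and both double knockdowns, which carry the same piwi hairpin and may have been kept at another temperature than piwi-sKD (label 25°C, library names 28), overlapped with no-KD in normalised counts. The ratio of piwi-sKD to piwi-sKD,ctrl-sKD was 3.09 on this scale and 3.63 in normalised counts.

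For pogo the tables differed rather than the groups within a table. It was at 46.4 and 48.3 in no-KD and piwi-sKD but at 18.9 and 18.4 in the double knockdowns, so piwi-sKD,ctrl-sKD had 0.392 of the level in piwi-sKD. Tc3 was at 27.3 in no-KD, 18.4 in piwi-sKD, 16.3 (piwi-sKD,ctrl-sKD) and 19.9 (piwi-sKD,dcr2-sKD), highest in no-KD. Bari1 was at 4.38, 6.77, 2.58 and 4.03 in the same order. Genotype, hairpins and table, and possibly temperature, differ together between these pairs of groups and cannot be told apart.

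The order of levels changed with the groups as well. Levels were taken per kb of the yardstick copies given above (1762 bp for S). Normalised counts per kb in no-KD were 288 ± 9.34 for pogo, 207 ± 6.39 for Tc3 and 164 ± 12.7 for S. They were 90.5 ± 13.5 for mariner2, 33.2 ± 2.26 for Bari1 and 1.29 ± 0.555 for Bari2 (SD, n = 2 each), with no overlap between neighbours in this order. In piwi-sKD mariner2 came first at 799 ± 72.5 per kb, followed by S at 535 ± 25.9, pogo at 334 ± 19.6, Tc3 at 155 ± 6.28, Bari1 at 57.2 ± 15.4 and Bari2 at 3.14 ± 0.783. mariner2 also led in the double knockdowns, at 669 ± 50.5 and 958 ± 142 per kb, before S at 148 ± 11.3 and 171 ± 4.09. Tc3 and pogo could not be ordered in piwi-sKD,ctrl-sKD, where they were at 117 ± 6.68 and 112 ± 28.1 per kb and overlapped. These levels rank the families only as far as the length of the yardstick copy stands for that of the copies transcribed. Divided instead by the total annotated length of each family, Tc3 led in no-KD at 42.4 per kb, before pogo at 18.1 and mariner2 at 6.96, while mariner2 still led in piwi-sKD at 61.5.

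**Figure D5:**
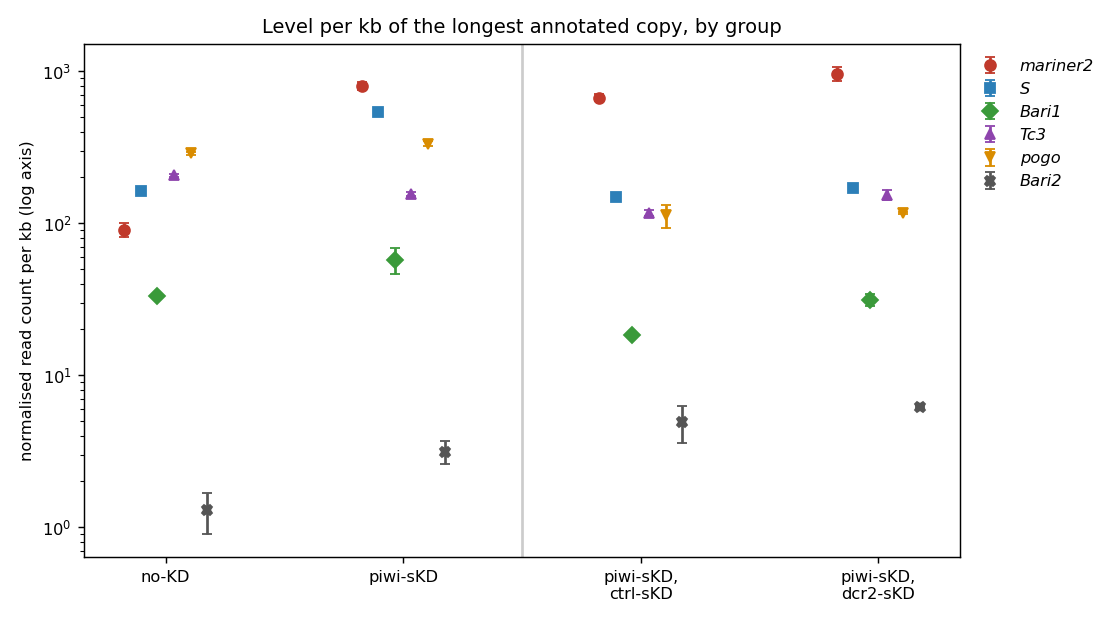
Normalised read count per kb of the longest annotated copy (log axis) for the 6 families in each group; points are means of 2 replicates, bars reach from the lower to the higher replicate, and the grey line separates the 2 tables. mariner2 goes from the fourth place in no-KD (90.5) to the first in the other groups, and S (blue) is above 500 per kb in piwi-sKD only.

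The sum of the 6 families was 1421 ± 41.5 normalised counts in no-KD, 2911 ± 32.0 in piwi-sKD, 1482 ± 147 with the ctrl-sKD hairpin and 1942 ± 184 with the dcr2-sKD hairpin (SD, n = 2 each). Its composition differed more than its size. pogo made up 43.1% of it in no-KD and 24.3%, 16.1% and 12.8% in the other groups in that order, and mariner2 made up 7.07%, 30.5%, 50.1% and 54.8%. The sum was 2.05 times higher in piwi-sKD than in no-KD, with ratios of single samples from 1.99 to 2.11, and 1.31 times higher in piwi-sKD,dcr2-sKD than in piwi-sKD,ctrl-sKD, with ratios from 1.14 to 1.50. As a share of all TE reads the 6 families took 1.68% and 1.75% in no-KD and 1.45% and 1.27% in piwi-sKD, lower although their sum was higher. The sum of the 15 other DNA families was 13199 ± 427 in no-KD and 14675 ± 262 in piwi-sKD.

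Families with the most similar profile were found by the mean absolute difference, over the 8 samples, of log2 levels centred within each table, among 100 candidates. For mariner2 these were accord2 (0.17), invader3 (0.23) and gypsy6 (0.25), all LTR retrotransposons, where the median candidate differed by 0.77. In the second comparison invader3 (2.05-fold) and gypsy6 (2.60-fold) had larger ratios than mariner2 (1.43-fold), and accord2 (1.25-fold) a smaller one. For S they were Quasimodo (0.10), G6 (0.10) and diver2 (0.13), with a median of 0.44. The closest profiles to Tc3 were micropia (0.10), HMS-Beagle (0.14) and TART-A (0.14), with a median of 0.31, and the closest to Bari1 were F, gypsy12 and 17.6 (0.14 each), with a median of 0.31. For pogo they were G3 (0.07), INE-1 (0.07) and BS (0.08), with a median of 0.23, and INE-1 was the only DNA family among these 15. Bari2 was too low for this measure.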

How the data were processed

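PolyA RNA of whole ovaries was sequenced in 8 samples (TruSeq libraries, single reads of 50 nt). The authors used UrQt for trimming, TopHat2 for alignment to FlyBase genes, eXpress for gene counts and TEcount (TEtools) for TE counts, and scaled both kinds jointly in DESeq2 1.10. What the authors deposited as signal is the normalised read count per TE family, in 2 tables of 4 samples each. The submitters' processing notes name dm3, and the files hold no coordinates. The sources do not say how reads matching more than 1 family were treated, and related families may share reads. All 8 value columns were used and 0 were left out. Gene rows were not used here, so knockdown of piwi and Dcr2 was not checked.

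The test was limma (version 3.58.1, in R 4.3.3), with an error trend by level, on the log2 of normalised count plus 1, which understates changes of low families. Each fit held the 4 samples of a table, families at 0 in all 4 samples were left out, and p-values were adjusted by Benjamini-Hochberg over all families with a threshold of 0.05. The step was tested on simulated data. These changed some families up and down alike, with no shift of all families, so they cannot speak to the choice of scale. An exact two-sided permutation of 2 against 2 cannot go below 0.333. The prior degrees of freedom were 6.11 in the first comparison and infinite in the second. Alternatives were pseudocounts of 0.5 and 5, a minimum mean of 10, no trend, other scalings, a fit over all 4 groups, replicate blocks and leaving out each sample. All 6 members were named. The members and lists were chosen with earlier results of these data known.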

Additional observations from a re-analysis of the deposited data

How the results depend on the processing

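In the first comparison, mariner2 and S kept direction and call in every setting. Of 178 values of single families under other settings, 137 kept both, 17 changed sign, 16 lost a call and 8 gained one. Rescaling changed most. With equal TE sums, the sum of the 6 families in piwi-sKD was 0.795 of that in no-KD, 22 families were higher and 78 lower (15 and 43 past 2-fold), 3 of the 6 were lower, and log2 fold changes were −0.60 for Bari1, −0.047 for Bari2 and −1.16 for pogo. With median centring the ratio was 0.882, the counts 22 and 73 (16 and 31 past 2-fold), 3 of the 6 were lower, and the same families were at −0.46, −0.30 and −1.01. With the other DNA families held equal the ratio was 1.84 and 10 families were lower. In the second comparison, equal TE sums gave a ratio of 0.799, counts of 12 and 65 (4 and 9 past 2-fold), 0 of the 6 higher and 2 lower, and log2 fold changes of −0.21 for mariner2, −0.31 for Bari2, −0.51 for S, −0.33 for Tc3 and −0.64 for pogo. Median centring gave 1.01, counts of 16 and 19 (6 past 2-fold higher), 0 of the 6 higher, and −0.053 for Bari2, −0.16 for S and −0.29 for pogo. With the other DNA families held equal 24 of all 110 families and 0 of the 6 were higher, and pogo was at −0.035. Beyond the rescaling itself, the cause was not tested.

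Leaving out 1 sample gave 3 to 5 families lower in the first comparison (1 to 2 past 2-fold) and 2 to 5 in the second (1 to 3), and 46 to 60 higher in the first and 23 to 29 in the second. Of the 6, 0 to 1 were lower in the first and 0 to 2 higher in the second. The log2 fold changes in the second ranged from −0.025 to 0.66 for Bari2 and from −0.18 to 0.34 for pogo. A group left with 1 sample is assumed to vary like the other.

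Same-numbered samples deviated together with a correlation of −0.13 in the first comparison and 0.25 in the second over 105 families. With 2 pairs a comparison and no label tying a number to a shared batch, the numbers were not taken to pair the samples. A fit with a replicate block called 53 families higher and 5 lower in the first comparison, with 4 of the 6 higher, Bari2 among them (adjusted p = 0.0450 by limma), and 0 lower (Tc3, adjusted p = 0.0514), and 33 and 3 families in the second. With the pairing crossed, a setting chosen after seeing the data, 64 were higher and 8 lower in the first, with 4 of the 6 higher, pogo (adjusted p = 0.0158 by limma) in place of Bari2. Weighting the recovered reads by voom was also chosen after seeing the data. The planned count-based fits were not run, because the values were too few for the check that whole reads had been recovered. The voom fit rests on the recovered reads all the same. Counting error was 35% to 100% per sample for Bari2 and 8.64% to 18.0% for Bari1.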
